A study of Mus musculus with 2 samples.

Results

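The replication-dependent histone genes are the genes whose mouse symbols begin with Hist1h to Hist4h, which encode the histones H1, H2A, H2B, H3 and H4. Matching the symbols of GENCODE M21 by gene identifier found 67 of them among the 43346 mouse genes of the tables. A further 3 symbols, Hist1h2bh, Hist1h2bm and Hist2h2bb, had no row under their gene identifier. Of the 67, 64 are annotated as protein-coding and 3 (Hist1h2aj, Hist1h2al and Hist3h2bb-ps) as pseudogenes. By class there were 6 H1, 20 H2A, 16 H2B, 12 H3 and 13 H4 genes. By genomic cluster, 54 lay in Hist1 (chromosome 13), 9 in Hist2 (chromosome 3), 3 in Hist3 (chromosome 11) and 1 in Hist4 (chromosome 6).

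RNA was extracted from the neural tube, the embryonic structure that gives rise to brain and spinal cord, of B6NCrl mouse embryos at embryonic day 12.5. The labels describe 1 group of 2 pools of mixed sex: replicate 2 came from 88 embryos and replicate 1 from 120, and both carry the same donor identifier. No genotype, treatment or second stage is given, so the values describe this tissue and its spread over both pools, without p-values. The input was 10 ng of RNA over 200 nucleotides in length. Depth came to 34555002 expected counts for replicate 2 and 32612423 for replicate 1. Markers of the labelled tissue were present: 10 of 10 progenitor and 10 of 10 neuron markers reached 1 TPM (a level set relative to transcript length and to library depth) in both libraries. So did 11 of 11 erythroid, 10 of 10 mesenchyme and meninges, 10 of 10 muscle and 10 of 10 endothelial markers. In such bulk tissue, fewer cells of a type and less RNA per cell cannot be told apart.

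Core histones H2A, H2B, H3 and H4 form the protein spool around which DNA is wound, and the linker histone H1 binds where DNA enters and leaves it. Replication-dependent histone genes are transcribed mainly in S phase, from clustered copies without introns that encode the same or nearly the same proteins. Their messages usually end in a conserved stem-loop, which the stem-loop binding protein Slbp recognises, and not in a poly(A) tail. Many genes for replication-independent variants, such as H3f3a, lie alone, have introns and give messages with poly(A) tails, though not all do.

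The stem-loop is shown for an H2A and an H4 gene, since its stem differs between H4 and the other classes. A 16-base stem-loop motif, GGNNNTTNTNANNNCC with a stem that pairs, was searched for on the transcript strand after the stop codon in the M21 models. It was found in 46 of the 70 genes of M21. Many models of the other genes end before it or have no 3' UTR. Coding transcripts of the whole annotation were searched over their full length. Of these, 90 of 58797 held the motif (0.153%), those of these genes included. That share counts transcripts and not genes, so the figures are not like for like. Capitals mark the stem-loop and the flanking bases are in lower case.
Hist1h2ae: aaaacaaaGGCTCTTTTCAGAGCCattcac
Hist1h4d: aaaccaaaGGCCCTTTTCAGGGCCactacc
The form in Hist1h2ae was found in 26 genes, in all classes except H4. The form in Hist1h4d was found in 7 genes, all of H4. The remaining 13 genes with a match carried 6 other forms.

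The promoter is shown for Hist1h2ap, the gene with the highest level. It covers chr13:21833426-21833725 on the minus strand of GRCm38.p6, from RefSeq, with 250 bases before and 50 after the start annotated there. That start lies 32 bases from the M21 start, and the 50 bases after it open with the start codon. Capitals mark the CCAAT box on either strand. The window of the copy Hist1h2ao, listed at 0 counts in both libraries, holds the same stretch with the same 3 CCAAT matches, shifted in position. This stretch is therefore not particular to Hist1h2ap.
Hist1h2ap: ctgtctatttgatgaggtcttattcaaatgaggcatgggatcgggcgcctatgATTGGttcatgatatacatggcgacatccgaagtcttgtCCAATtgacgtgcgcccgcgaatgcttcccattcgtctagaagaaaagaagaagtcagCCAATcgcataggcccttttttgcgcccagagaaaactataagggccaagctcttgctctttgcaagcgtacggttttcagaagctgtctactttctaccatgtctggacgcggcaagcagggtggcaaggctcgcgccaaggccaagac
RefSeq promoters were matched for 62 genes of M21 and searched for 3 motifs on both strands, each counted separately, so that matches of different motifs may overlap. Some RefSeq starts lie further from the M21 start, such as 98 bases for Hist1h2ao and 1770 bases for Hist1h1d, which moves the window searched. CCAAT (reverse ATTGG) was present in 53 of the 62 (85.5%), against 37.4% of all 32851 mouse promoters of that length. All 6 H1, 18 H2A, 16 H2B and 10 H3 promoters held it, against 3 of 12 H4 promoters. TATAAA (reverse TTTATA) was present in 35 (56.5%), against 13.6% of all promoters. The octamer ATTTGCAT (reverse ATGCAAAT) was present in 13 of the 62, against 1.74% of all promoters. These 13 were 7 of 18 H2A and 6 of 16 H2B promoters, and none of the H1, H3 and H4 promoters held it. Windows of H2A and H2B genes that lie head to head can overlap, so the same site can count for both genes. Hist1h2ae and Hist1h2bg share an octamer site in this way, and Hist1h2ah and Hist1h2bk share a TATAAA site. For all 3 motifs, the shares thus count promoters and not separate sites. Of the H2A genes, the 7 with the octamer had a median of 4.75 TPM in replicate 2 and 8.77 in replicate 1, and the 11 without it had 11.4 TPM in replicate 2 and 16.6 in replicate 1. H2B genes went the other way. The 4 that had a row and the octamer had a median of 3.585 TPM in replicate 2 and 5.89 in replicate 1. The 9 without it had 1.84 TPM in replicate 2 and 2.3 in replicate 1. A match in these letters is a description of the window and not of binding.

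The genes together held 3882 TPM in replicate 2, against 4659.7 TPM in replicate 1, a mean of 4271 ± 549.6 TPM (SD, n = 2). That was 0.388% of all TPM in replicate 2 and 0.466% in replicate 1. In expected counts, the estimated reads per gene, they held 34536 in replicate 2 and 39653 in replicate 1. Most of the level came from a single gene. Hist1h2ap, which encodes the H2A protein shared by most Hist1 H2A genes, made up 73.0% of the summed TPM in replicate 2 and 68.7% in replicate 1. It ranked 14 among 21474 protein-coding genes by mean TPM. Without it, the sum was 1049 TPM in replicate 2, against 1459.6 TPM in replicate 1. The 5 highest genes held 85.9% of the summed TPM in replicate 2 and 84.9% in replicate 1.

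Levels spread widely, and the median gene was low. The median was 4.16 TPM in replicate 2, against 5.88 TPM in replicate 1. At 1 TPM or more there were 50 genes in replicate 2 and 53 in replicate 1, of which 48 passed in both libraries. At 100 TPM or more there were 3 genes in replicate 2 and 4 in replicate 1. A further 7 genes passed 1 TPM in 1 library only, and 12 stayed under it in both. Of those 12, 5 had an expected count of 0 in both libraries: Hist1h2aa, Hist1h2ad, Hist1h2ao, Hist1h2ba and Hist1h4m. A count of 0 allows up to 0.0895 CPM (counts scaled to library size) in replicate 2 and 0.0949 CPM in replicate 1, for counting error only. That floor does not cover how reads were divided among near-identical copies. In replicate 2 the deposited intervals reached up to 9.69 TPM for Hist1h2ao, 3.03 TPM for Hist1h2ad and 2.92 TPM for Hist1h4m. In replicate 1 they reached up to 7.04, 2.21 and 2.73 TPM. Hist1h2aa and Hist1h2ba encode the H2A and H2B of the testis.

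**Figure D1:**
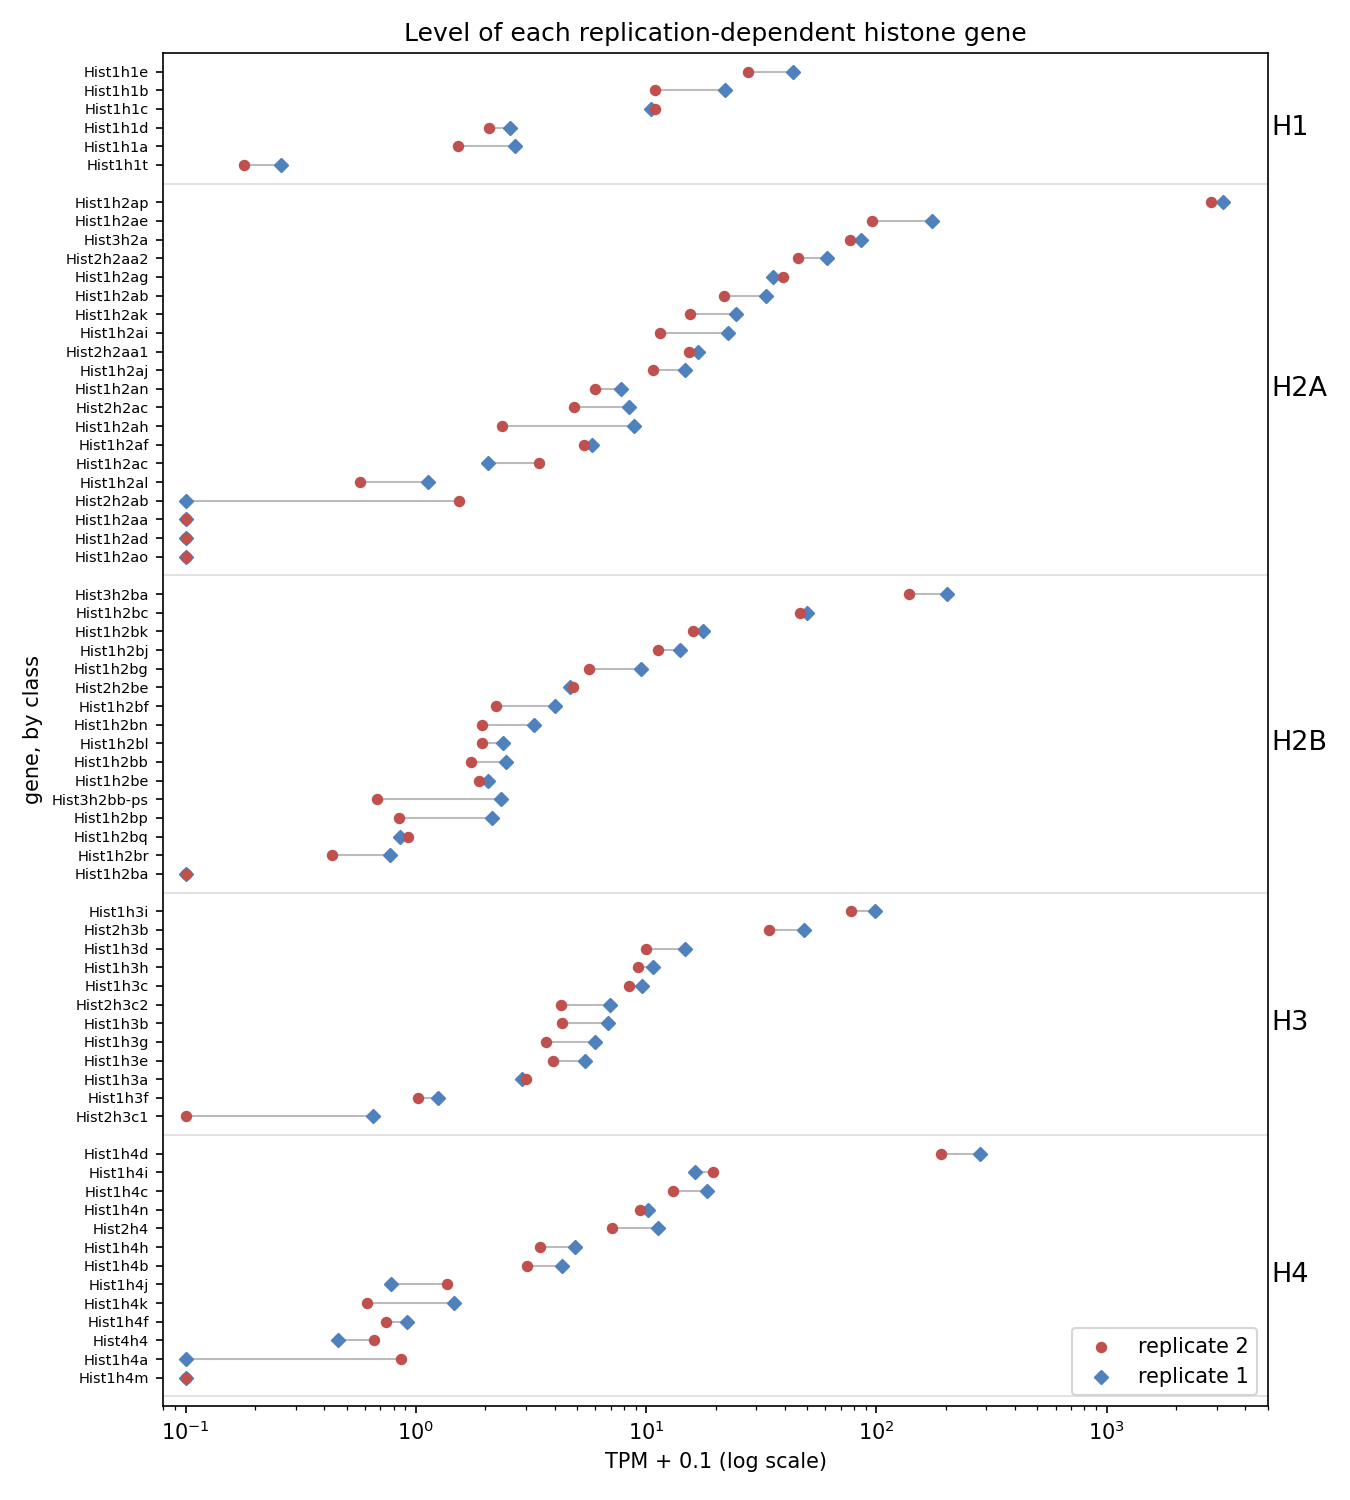
Level of each of the 67 genes in replicate 2 (circles) and replicate 1 (diamonds), grouped by class and ordered by mean, on a log axis of TPM + 0.1. Hist1h2ap lies at 2833 TPM in replicate 2, against 3200.2 TPM in replicate 1, far from every other gene, and most circles lie left of their diamonds.

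Reads of near-identical copies bear on single-gene levels. In the M21 models, 27 of the 67 genes had fewer than 50% of their 100-base windows found in no other transcript of another gene, and 3 had none (Hist2h2aa2, Hist1h2bq and Hist2h3c1). Hist1h2ap (ENSMUSG00000094777, GRCm38 chromosome 13, 21833026 to 21833507, minus strand, 1 exon) had 30 unique windows of 383, or 7.83%. They started at bases 1 to 30, at the 5' end of its model. Hist1h2ao, with the same coding sequence, had 28 unique windows of 381, which started at bases 354 to 381. The tables listed 22402 expected counts for Hist1h2ap in replicate 2 and 24375 in replicate 1, and 0 for Hist1h2ao in both. The deposited TPM interval of Hist1h2ao reached up to 9.69 TPM in replicate 2, against 7.04 TPM in replicate 1. The levels of Hist1h2ap and of its copies one by one are therefore uncertain. Sums over genes that encode 1 protein depend less on how reads were divided among those genes. Windows shared between proteins still bear on such sums. Hist1h2ah, the only gene of its protein, had 12.1% of its windows unique. The deposited TPM of Hist1h2ap also lay above its own deposited interval in both libraries (2710 to 2787 TPM in replicate 2 and 3063 to 3146 TPM in replicate 1), the only member for which this held. Its posterior mean was 2749.8 TPM in replicate 2, against 3105 TPM in replicate 1.

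By class, H2A led the summed level and H1 was lowest. H2A held 82.1% of the summed TPM in replicate 2 and 79.4% in replicate 1 (80.8 ± 1.90%, SD, n = 2). H4 held 6.97 ± 0.756%, H2B 6.41 ± 0.556%, H3 4.30 ± 0.323% and H1 1.54 ± 0.267%. H4 stood above H2B in both libraries, by less than the spread between them. By CPM, not corrected for length, this order turned, with 5.83% for H4 and 8.36% for H2B. Without Hist1h2ap, an alternative chosen after its level was seen, H2A held 34.1 ± 0.350%, H4 23.9 ± 0.101%, H2B 22.0 ± 0.387%, H3 14.8 ± 0.431% and H1 5.27 ± 0.367%. By summed TPM, the order of the classes was the same with and without Hist1h2ap. The median gene gave another order, with 9.99 ± 2.44 TPM in H2A, 6.44 ± 0.0955 in H1, 5.49 ± 1.84 in H3, 3.58 ± 0.905 in H4 and 2.30 ± 0.647 in H2B.

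**Figure D2:**
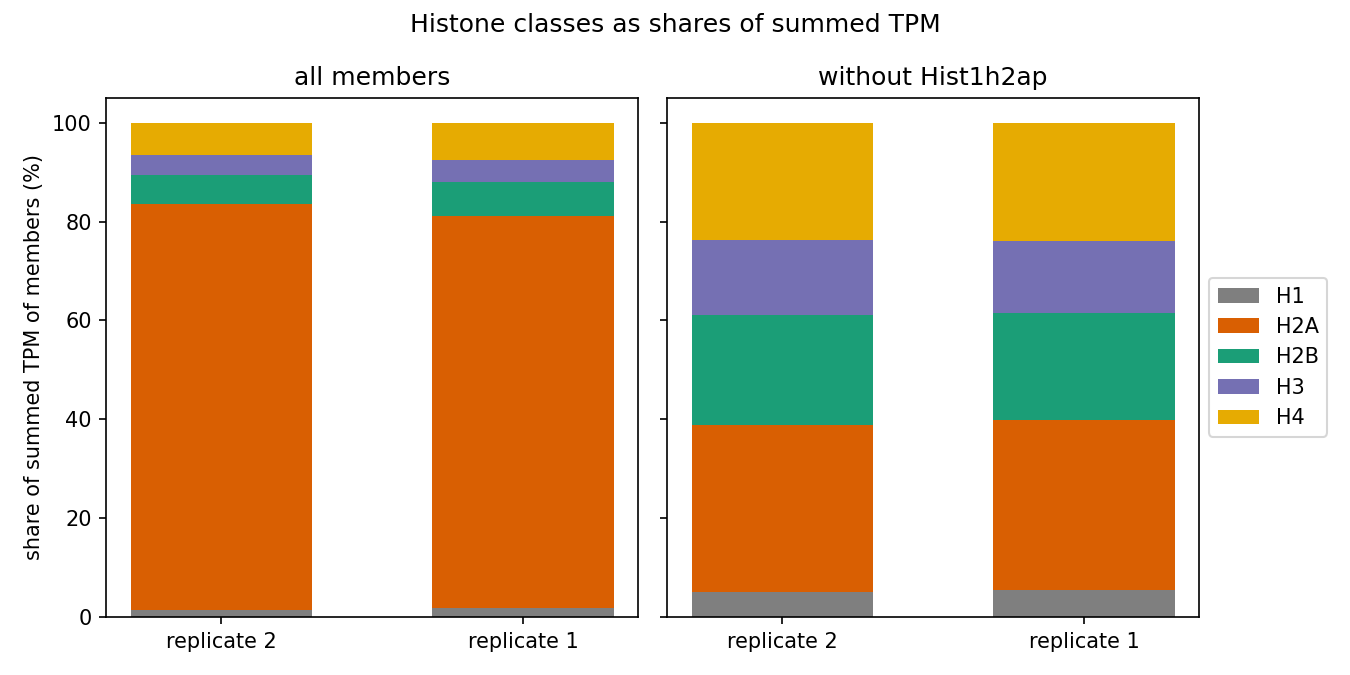
Share of the summed TPM held by each histone class in replicate 2 and replicate 1, with all 67 genes (left panel) and without Hist1h2ap (right panel). H2A holds 82.1% in replicate 2 and 79.4% in replicate 1 with all genes, and 33.8% in replicate 2 and 34.3% in replicate 1 without Hist1h2ap.

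By cluster, Hist1 held 90.9 ± 0.742% of the summed TPM, Hist3 5.89 ± 0.485%, Hist2 3.19 ± 0.262% and Hist4 0.0111 ± 0.00474%. The 3 genes of Hist3 thus held more than the 9 of Hist2. Without Hist1h2ap the shares were 68.8% for Hist1, 20.2% for Hist3 and 11.0% for Hist2. Counts, which are not corrected for length, gave Hist3 13.9% and Hist1 81.7%. The model of Hist3h2a is 2146 bases long, against 482 bases for Hist1h2ap.

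Of the linker histones, Hist1h1e led. It stood at 27.5 TPM in replicate 2, against 43.3 TPM in replicate 1, and held 52.9 ± 0.956% of H1 TPM. Hist1h1b stood at 10.8 TPM in replicate 2, against 21.8 TPM in replicate 1. Both were lower in replicate 2, and for both the deposited intervals of the libraries did not overlap. Hist1h1c was close to level, with 10.8 TPM in replicate 2, against 10.4 TPM in replicate 1. Hist1h1d had 1.98 TPM in replicate 2, against 2.47 TPM in replicate 1, and Hist1h1a had 1.43 TPM in replicate 2 against 2.59 in replicate 1. Hist1h1t, the testis linker histone, was near 0, with 1 expected count in replicate 2 and 2 in replicate 1.

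Among H2A genes, those encoding the protein of Hist1h2ap held nearly all of the level. These were 9 genes with the same 130-residue translation, and they summed to 3010.5 TPM in replicate 2, against 3475 TPM in replicate 1, or 94.2 ± 0.383% of H2A. Next after Hist1h2ap came Hist1h2ae (chromosome 13, 23570517 to 23571220, minus strand) with 95.7 TPM in replicate 2, against 174 TPM in replicate 1. Hist1h2ae was lower in replicate 2, and its deposited intervals did not overlap. Hist3h2a (chromosome 11, 58954685 to 58956830, plus strand), whose protein differs from that of Hist1h2ap at 1 residue, had 76.9 TPM in replicate 2, against 85.8 TPM in replicate 1. Some windows of Hist3h2a lie also in Trim17, and the labels do not say if counting was stranded.

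The H2A genes of the Hist2 cluster were lower. Hist2h2aa2 had 45.5 TPM in replicate 2, against 61.1 TPM in replicate 1, and its copy Hist2h2aa1, with the same protein, had 15.3 TPM in replicate 2 against 16.6 in replicate 1. Their sum, which depends less on how reads were divided between them, was 60.8 TPM in replicate 2, against 77.7 TPM in replicate 1. Hist2h2ac had 4.75 TPM in replicate 2, against 8.29 TPM in replicate 1. Hist2h2ab had 10.2 expected counts (1.44 TPM) in replicate 2 and 0 in replicate 1. Its deposited TPM intervals overlapped, from 0.263 to 2.17 TPM in replicate 2 and up to 1.57 TPM in replicate 1. Presence of Hist2h2ab in 1 library only is thus not settled.

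Among H2B genes, Hist3h2ba held most of the level. Hist3h2ba (chromosome 11, 58948920 to 58949533, plus strand) had 138 TPM in replicate 2, against 203 TPM in replicate 1, or 61.5 ± 3.40% of H2B. Its translation differs from that of Hist1h2bc at 8 of 126 residues, and 95.1% of its windows were unique. Hist1h2bc had 46.6 TPM in replicate 2, against 49.6 TPM in replicate 1. Hist3h2ba was thus lower in replicate 2 with intervals that did not overlap, whereas those of Hist1h2bc overlapped. Hist1h2bk had 15.9 TPM in replicate 2, against 17.6 TPM in replicate 1, and Hist1h2bj had 11.1 TPM in replicate 2 against 13.9 in replicate 1. Hist2h2be had 4.69 TPM in replicate 2, against 4.59 TPM in replicate 1. The pseudogene Hist3h2bb-ps had 0.580 TPM in replicate 2, against 2.24 TPM in replicate 1.

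H3 genes encode only 2 proteins, which differ at 1 of 136 residues. The 4 genes of the first, Hist1h3a, Hist1h3g, Hist1h3h and Hist1h3i, summed to 92.7 TPM in replicate 2, against 118 TPM in replicate 1, or 57.2 ± 1.99% of H3. The 8 genes of the second summed to 65.4 TPM in replicate 2, against 93.2 TPM in replicate 1. The first protein thus led in both libraries by TPM. In expected counts, not corrected for length, the order turned, with 605 for the first and 632 for the second in replicate 2, and 739 and 892 in replicate 1. Hist1h3i had 77.1 TPM in replicate 2, against 98.5 TPM in replicate 1. Hist2h3b had 34.0 TPM in replicate 2, against 48.4 TPM in replicate 1. These were the highest genes of the first and the second protein, each lower in replicate 2 with intervals that did not overlap. Hist1h3d had 9.88 TPM in replicate 2, against 14.7 TPM in replicate 1, and Hist1h3h had 9.07 TPM in replicate 2 against 10.6 in replicate 1. From the Hist2 cluster, Hist2h3c2 had 4.16 TPM in replicate 2, against 6.85 TPM in replicate 1, and Hist2h3c1, with no unique window, had 0 TPM in replicate 2 against 0.550 in replicate 1.

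All 13 H4 genes encode 1 protein of 103 residues, yet 1 gene held 78.5 ± 2.85% of its TPM. Hist1h4d (chromosome 13, 23581598 to 23582735, plus strand) had 191 TPM in replicate 2, against 282 TPM in replicate 1, and its intervals did not overlap. In the tables its model is 393 bases long, against 1138 bases in M21, and a level per length depends on the model. Hist1h4i had 19.4 TPM in replicate 2, against 16.2 TPM in replicate 1, and Hist1h4c had 12.9 TPM in replicate 2 against 18.3 in replicate 1. Hist1h4i was thus one of the few genes higher in replicate 2, with intervals that overlapped. Hist1h4n had 9.29 TPM in replicate 2, against 10.1 TPM in replicate 1. Outside the Hist1 cluster, Hist2h4 had 7.02 TPM in replicate 2, against 11.1 TPM in replicate 1, and Hist4h4 had 0.560 TPM in replicate 2 against 0.360 in replicate 1.

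H2A and H2B genes often lie head to head, with their start sites close together. In M21 there were 14 such H2A and H2B pairs, with 172 to 305 bases between the starts. In 13 of them both genes had a row. The H2A gene was higher in both libraries in 8 pairs, the H2B gene in 4, and in 1 pair both stood at 0. Among the 4 was Hist1h2bq over Hist1h2ao, an order that is uncertain. Hist1h2bq had 0.820 TPM in replicate 2, against 0.750 TPM in replicate 1. Hist1h2ao stood at 0, but its deposited interval reached up to 9.69 TPM in replicate 2, against 7.04 TPM in replicate 1. Hist1h2ad stood at 0 too, and the order of Hist1h2bf over it is uncertain in replicate 2. There Hist1h2bf had 2.12 TPM, and the interval of Hist1h2ad reached up to 3.03 TPM. Among the 8, the intervals of some pairs overlapped, such as Hist1h2ai and Hist1h2bl in replicate 2. In another of the 8, Hist3h2a stood over the pseudogene Hist3h2bb-ps. The widest gap was between Hist1h2ap and Hist1h2br, 235 bases apart, where Hist1h2br had 0.330 TPM in replicate 2, against 0.670 TPM in replicate 1. Only 7.83% of the windows of Hist1h2ap and 0.173% of those of Hist1h2br were unique, so their single levels are uncertain. Another Hist1h2br transcript, listed under a different gene identifier and not in these values, had 3.17 TPM in replicate 2, against 4.16 TPM in replicate 1. The opposite order held for Hist1h2ac and Hist1h2bc, 250 bases apart. There, Hist1h2ac had 3.34 TPM in replicate 2, against 1.95 TPM in replicate 1, below Hist1h2bc in both. Other pairs were closer, such as Hist2h2ac and Hist2h2be at 4.75 and 4.69 TPM in replicate 2, and 8.29 and 4.59 TPM in replicate 1.

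**Figure D3:**
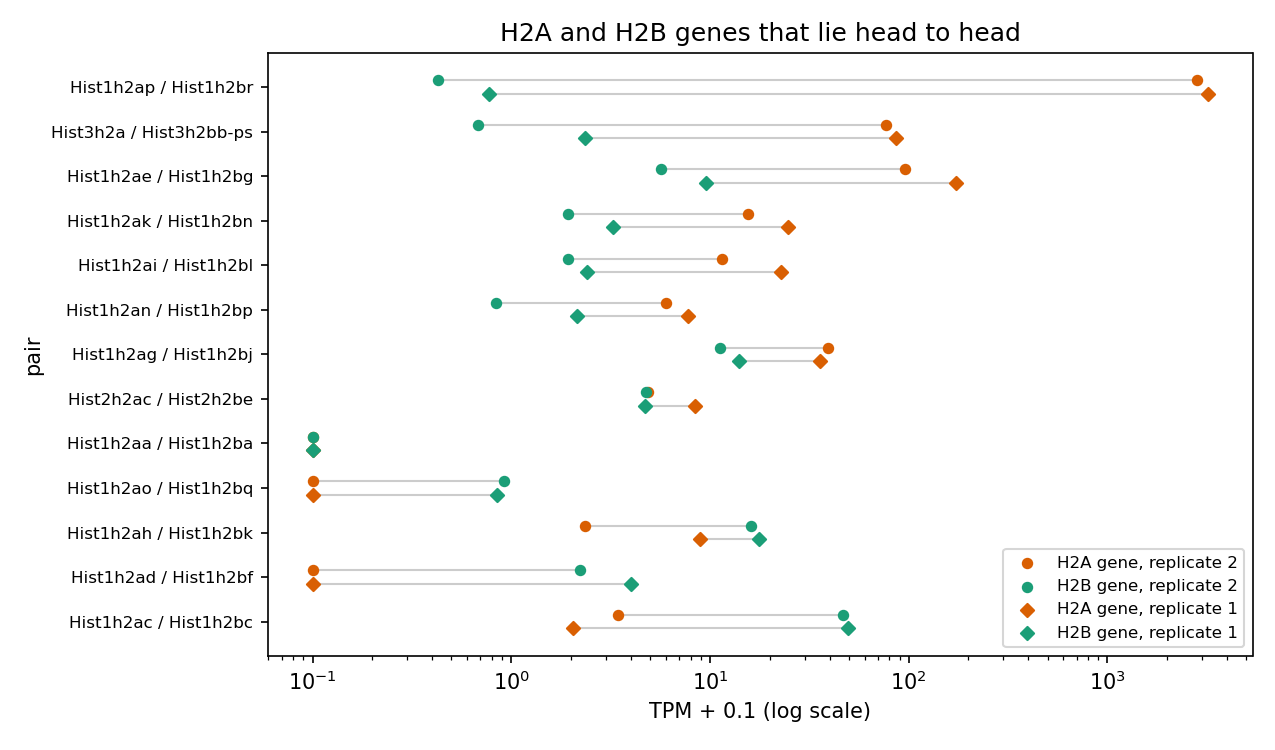
Levels of the 13 pairs of H2A (orange) and H2B (green) genes that lie head to head, on a log axis of TPM + 0.1, with replicate 2 as circles and replicate 1 as diamonds. The H2A gene is higher in both libraries in 8 pairs and the H2B gene in 4. Levels of near-identical copies, such as Hist1h2ao, are uncertain one by one.

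Most genes were lower in replicate 2 than in replicate 1. Of the 51 genes that averaged 1 TPM or more, 45 were lower in replicate 2 (88.2%), against 41.2% of all 15735 mouse genes at that level. Their median log2 ratio of TPM + 1, replicate 2 over replicate 1, was -0.42, against 0.03 over all genes. With TMM scaling of counts the medians were -0.34 and 0.00, with 46 of the 51 genes lower, against 49.8% of all genes. The sum was lower in replicate 2 in every class, and the log2 ratio of sums was -0.62 for H1, -0.49 for H4, -0.44 for H2B, -0.42 for H3 and -0.22 for H2A. With 1 library on each side, this difference has no replicate check.

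Few of the single differences were large on this scale. On TPM + 1, 2 of the 51 genes, Hist1h2ah and Hist3h2bb-ps, differed by more than 2-fold (3.92%), against 1.43% of all genes. Adding 1 TPM shrinks the ratios of low genes, and further genes, such as Hist1h1b and Hist1h2bp, passed 2-fold on TPM itself. The deposited intervals did not overlap for 11 genes (21.6%), all lower in replicate 2, against 4.19% of all genes. In the other direction there were none, against 10.1% of all genes. The 11 were Hist1h1b, Hist1h1e, Hist1h2ae, Hist1h2ak, Hist1h2ap, Hist3h2a, Hist3h2ba, Hist1h3i, Hist2h3b, Hist1h4d and Hist2h4. These intervals cover estimation error within a library, at a level not stated, and not the spread between pools.

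**Figure D4:**
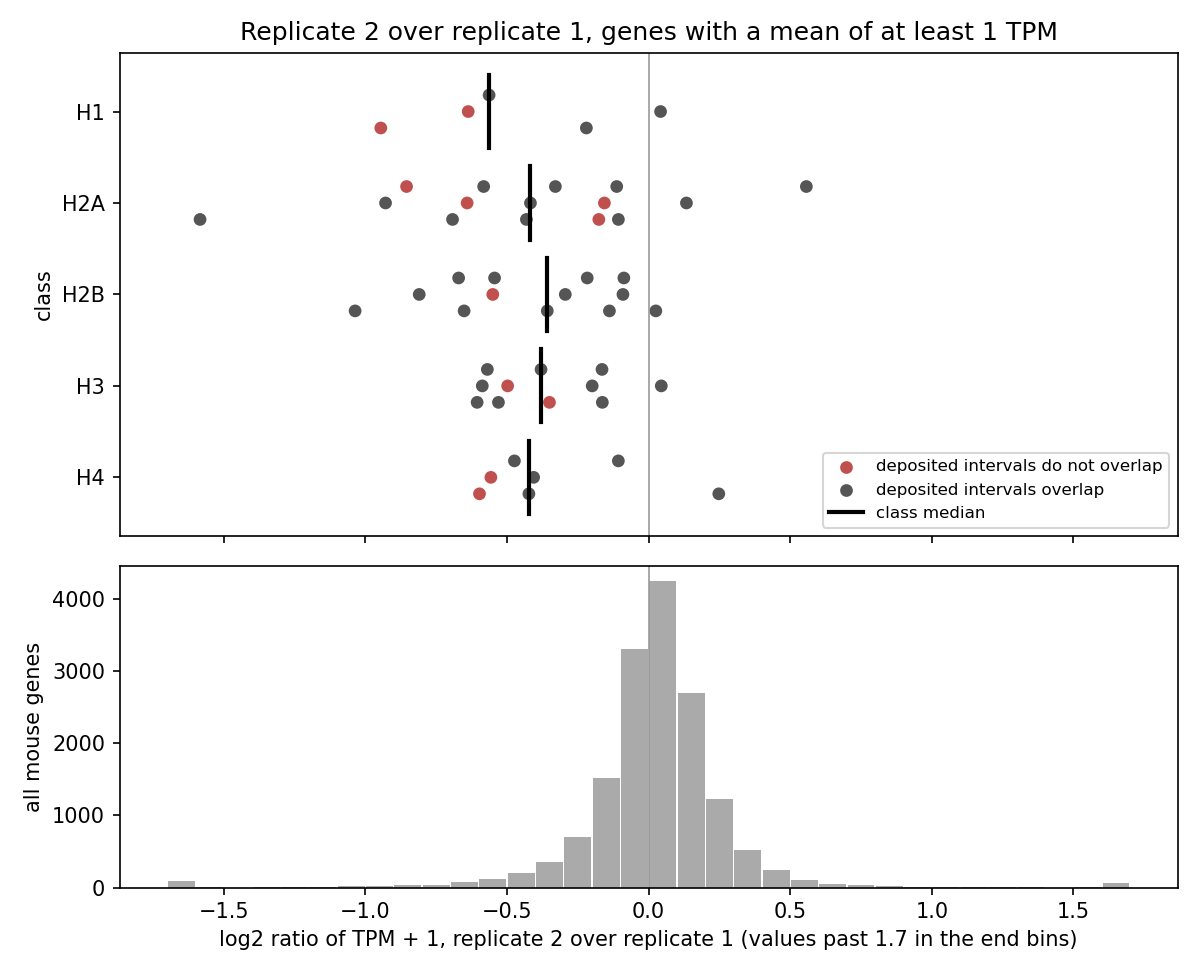
Log2 ratio of TPM + 1, replicate 2 over replicate 1, for the 51 genes that averaged 1 TPM or more by class (top, with the class median as a bar) and for all 15735 genes (bottom, genes per bin of 0.1). The 11 red points are genes whose deposited intervals do not overlap, and all lie left of 0.

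Of the 24 genes that averaged 5 TPM or more and had 100 expected counts or more in the higher library, 21 were lower in replicate 2. Of all genes that averaged 1 TPM or more, 41.2% were lower. The 5 with the lowest log2 ratios were Hist1h1b (-0.95), Hist1h2ai (-0.93), Hist1h2ae (-0.85), Hist1h2ak (-0.64) and Hist1h1e (-0.64). At the other end were Hist1h4i (0.25), Hist1h2ag (0.13), Hist1h1c (0.04), Hist1h2bc (-0.09) and Hist2h2aa1 (-0.11). Hist1h2ai had 11.4 TPM in replicate 2, against 22.7 TPM in replicate 1, and Hist1h2ak had 15.4 TPM in replicate 2 against 24.5 in replicate 1. Hist1h2ag had 39.1 TPM in replicate 2, against 35.6 TPM in replicate 1. Only 11.6% of the windows of Hist1h2ai and 23.8% of those of Hist1h2ag were unique, against 100% for Hist1h1b. Over the 31 genes with at least 50% of their windows unique, 26 were lower and the median was -0.42. All genes at that level had 41.2% lower and a median of 0.03.

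Ratios were also read by the end of the gene model. Where the M21 model had the length in the tables, a poly(A) signal was looked for in its last 50 bases. Over 6 genes with such a signal, 4 were lower in replicate 2 with a median log2 ratio of -0.12, against 27 of 30 genes without it with a median of -0.41. The deposited intervals gave another picture, apart with replicate 2 lower for 3 of the 6 genes with a signal and 5 of the 30 without. Over all genes that averaged 1 TPM or more, 41.2% were lower and 4.19% had intervals apart in that direction. By the stem-loop, 7 genes whose models run over 60 bases past it had a median log2 ratio of -0.38, and 14 whose models end within 60 bases had -0.35. No direction is read from these splits, which were made after the values were seen and have no test.

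Genes that process histone messages or escort histones were closer to all genes by median log2 ratio. Of 26 genes for histone message processing, 15 were lower in replicate 2 with a median log2 ratio of -0.01, and of 22 histone chaperones 12 were lower with a median of 0.00. Slbp had 157 TPM in replicate 2, against 156 TPM in replicate 1. Npat, the activator of histone gene transcription, had 13.9 TPM in replicate 2, against 11.6 TPM in replicate 1. Casp8ap2, another factor of the histone locus body, had 36.8 TPM in replicate 2, against 42.1 TPM in replicate 1. For all of these 3 genes the deposited intervals overlapped. The highest processing genes were those of the small nuclear ribonucleoproteins, Snrpe (540.2 ± 17.1 TPM), Snrpg (524 ± 19.6 TPM) and Snrpb (441 ± 18.4 TPM). The highest chaperones were Npm1 (509.6 ± 3.17 TPM), Set (476 ± 4.67 TPM) and Rbbp4 (378 ± 9.09 TPM). S phase genes had a median log2 ratio of 0.00 with 13 of 27 lower, and genes of G2 and mitosis had 0.00 with 9 of 20 lower. The deposited intervals did not overlap for 4 of the 20 genes of G2 and mitosis (Ube2c, Birc5, Cdc20 and Plk1), all lower in replicate 2. They did not overlap for 2 of the 27 S phase genes, 1 in each direction. Over all genes that averaged 1 TPM or more, 4.19% had intervals apart with replicate 2 lower and 10.1% with replicate 2 higher.

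Of the cell type markers, those of muscle and of neurons differed most between the libraries by median log2 ratio. Of the 10 muscle markers, 10 were lower in replicate 2 with a median log2 ratio of -0.38, and for 9 the intervals did not overlap. Their summed level was 284 TPM in replicate 2, against 389.7 TPM in replicate 1. Of the 10 neuron markers, 9 were higher in replicate 2 with a median log2 ratio of 0.17, and for 8 of these 9 the intervals did not overlap. Elavl3 was lower, also with intervals that did not overlap. Their summed level was 3944 TPM in replicate 2, against 3516 TPM in replicate 1. Of the 10 endothelial markers, 9 were higher in replicate 2 with a median log2 ratio of 0.11, and for 3 of these the intervals did not overlap. Medians were 0.04 for erythroid, -0.03 for mesenchyme and meninges and -0.02 for progenitor markers. Over all genes that averaged 1 TPM or more, 4.19% had intervals apart with replicate 2 lower and 10.1% with replicate 2 higher. The part of any of these cell types in the lower histone levels was not tested.

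Replication-independent histone genes stood higher in sum. Of 19 such genes found, 12 reached 1 TPM in both libraries, and they summed to 8668 TPM in replicate 2, against 9040.0 TPM in replicate 1. The highest were H3f3a (2911 ± 71.7 TPM), H3f3b (1700.2 ± 40.9 TPM) and H2afz (1591 ± 120 TPM), which encode the H3 and H2A variants deposited outside S phase or at promoters. Of the 12, 10 were lower in replicate 2, with a median log2 ratio of -0.07. The deposited intervals did not overlap for 7 of them, with 6 lower in replicate 2 and H3f3b higher. Over all genes that averaged 1 TPM or more, 4.19% had intervals apart with replicate 2 lower and 10.1% with replicate 2 higher. Of the TPM of both kinds together within a class, the replication-dependent genes held 3.38 ± 0.621% of H3 TPM, 12.3 ± 2.78% of H1 TPM and 52.4 ± 1.23% of H2A TPM, or 12.0 ± 1.97% of H2A TPM without Hist1h2ap. The manual of a SMARTer Ultra Low kit is linked in the labels. Such kits prime cDNA on poly(A) tails, whereas the labels call the assay total RNA-seq and do not name the priming. The levels of genes with and without tails are therefore set side by side only as deposited, and the part of priming was not tested.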

How the data were processed

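Per the labels' protocols, extraction used a mirVana kit. For each library the authors deposited gene and transcript tables, made with assembly mm10 and GENCODE M4, per the deposited read-me text. No source used here names the program or says whether it counted by strand. The series is titled as superseded, and the later one was not used here. Expected counts, TPM and FPKM are those the authors deposited: estimated reads, and reads corrected for length and depth. The percent values the authors deposited give each transcript's share of its gene. The deposited bounds of TPM and FPKM, treated as a score per gene, are intervals whose level is not stated. The deposited tables hold estimates, so reads of near-identical copies were divided by the authors' program.

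Names and coordinates (1-based) came from GENCODE M21 on GRCm38 by gene identifier without version, for 42462 of 43346 mouse genes. The 26345 rows that name no mouse gene stayed out of all totals of mouse genes. Levels are mean ± SD (n = 2). Ratios are on the log2(TPM + 1) scale over genes that average 1 TPM or more, which understates differences of low genes. Nothing in the labels says how the pools were split beyond their embryos, and they give no batch or date. Coding sequences of the M21 models were translated, and transcripts were cut in windows of 100 bases, with Python 3.11.15 and Biopython 1.88. edgeR 4.0.16 gave TMM factors and DESeq2 1.42.0 size factors on rounded expected counts, for scaling only. The calculation of ratios was checked on simulated counts with known folds, which tests the code and not these libraries. Floors cover counting error only, with 3 counts allowed by a count of 0.

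The genes and lists were chosen with earlier results of these data known. Named are the 4 highest genes of each class, every H1 gene, every gene outside Hist1, the 5 largest ratios each way (averaging 5 TPM or more, with 100 expected counts in 1 library) and genes at 0 in both libraries. Of other genes, the 3 highest of the processing, chaperone and variant lists are named, with Slbp, Npat and Casp8ap2. Others named, such as the 11 genes whose intervals do not overlap and the pairs, were chosen after their values were seen. Protein sequences are not shown here.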

Additional observations from a re-analysis of the deposited data

Results flagged for a closer look

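Reads of 4 genes with histone symbols in M21 lay in transcript rows under other gene identifiers, outside the sums above. The Hist2h2bb transcript, whose gene had no row of its own, had 7.55 TPM (44.0 expected counts) in replicate 2 and 13.67 TPM (76.7 expected counts) in replicate 1. The Hist1h2br transcript had 3.17 TPM in replicate 2, against 4.16 TPM in replicate 1, and the Hist1h2bq transcript had 0.54 TPM in replicate 2, against 1.22 TPM in replicate 1. A Hist2h3c1 transcript had 0.99 TPM (35.1 expected counts) in replicate 2 and 0 TPM in replicate 1. All were drawn out because they passed the 3 counts that a count of 0 allows in at least 1 library.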

How the results depend on the processing

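No paired analysis was possible because the labels give 1 group. Summed FPKM was 2581, and without correction for length the sum was 1142 CPM. By CPM the shares were 2.79% for H1, 8.36% for H2B, 3.85% for H3, 5.83% for H4, 81.7% for Hist1, 4.38% for Hist2, 13.9% for Hist3 and 0.0715% for Hist4. Leaving out Hist1h2ap, chosen after seeing the data, gave a sum of 1254 TPM and shares of 5.27% for H1, 34.1% for H2A, 22.0% for H2B, 14.8% for H3, 23.9% for H4, 68.8% for Hist1, 11.0% for Hist2, 20.2% for Hist3 and 0.0390% for Hist4. At 5 TPM, 30 genes passed in both libraries, against 48 at 1 TPM. With a pseudocount of 10 the median log2 ratio was -0.17, against -0.42, since a larger pseudocount shrinks ratios of low genes. Adding the transcripts under other gene identifiers, also chosen after seeing the data, moved no class or cluster share by more than the spread between the libraries. With 2 libraries of 1 group, a difference between them has no replicate check.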
